A study of Mus musculus with 8 samples.

Results

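A group of 10 genes that build, lengthen and desaturate fatty acids was followed in the RNA of common dendritic cell progenitors (CDPs), the bone marrow cells that give rise to dendritic cells. The genes were taken by name from the deposited table of counts per gene, and all 10 are among its 16119 genes and passed the filter on low counts. CDPs, lineage-negative (Lin-) cells with c-kit(int), Sca1(lo) and both CD115 and Flt3 on their surface, were sorted from C57BL/6 mice (C57BL/6J in the methods) given a high fat diet (HFD, 60 kcal% fat, labelled DIO, for diet-induced obese, and 16 weeks on the diet) or a control chow (CF, 10 kcal% fat, labelled DIO-Control and matched for age). The methods describe males, about 50000 sorted cells per library and 4 replicates per diet, and do not say whether a replicate came from 1 mouse or from several, so p-values measure the spread between these libraries. The comparison of HFD with CF asks whether the fatty acid synthesis programme of these progenitors differs between lean mice and mice made obese by diet.

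Fatty acid synthesis starts from citrate. Acly, ATP citrate lyase, splits it to acetyl-CoA in the cytosol, Acaca, acetyl-CoA carboxylase, makes malonyl-CoA in the committed step, and Fasn, fatty acid synthase, joins these units to palmitate with NADPH as the reducing agent. Palmitate is lengthened in the endoplasmic reticulum, where Elovl6 acts on palmitate, Elovl5 on polyunsaturated acids and Elovl1 on saturated very long chains, and double bonds are put in by the stearoyl-CoA desaturases Scd1 and Scd2 and by the polyunsaturated acid desaturases Fads1 and Fads2. Most of these genes are known targets of the SREBP transcription factors, and dietary polyunsaturated fat is known to lower their expression in liver.

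Of the 10, 3 lie on chromosome 11, 4 on chromosome 19 and the others on chromosomes 3, 4 and 9 of GRCm38 (GENCODE vM21). On chromosome 11 are Fasn at chr11:120805846-120824547 (minus strand), Acaca at chr11:84129672-84401651 (plus strand) and Acly at chr11:100476353-100528000 (minus strand). On chromosome 19, the stearoyl-CoA desaturases Scd1 (chr19:44394455-44407879, minus strand) and Scd2 (chr19:44293674-44306864, plus strand) lie close together, and so do Fads1 (chr19:10182888-10196877, plus strand) and Fads2 (chr19:10062765-10101746, minus strand). Elovl1 is at chr4:118428093-118432953, Elovl5 at chr9:77917364-77984519 and Elovl6 at chr3:129532355-129638495, all on the plus strand. Sequence shared with other genes limits what the counts of some members can tell: of all 75-base stretches of the Acaca transcripts, 26.8% occur in another gene, mostly in the processed pseudogene Gm5182, against 3.15% for Scd1 (mostly Scd3), 1.78% for Scd2, 2.05% for Elovl6 and 0.0% for the other members. Elovl1 shares 53 nt of exon with Cdc20 and Elovl6 34 nt with Gm35986, both on the other strand. Whether counting used the strand is not given in the sources used here. Scd2 shares 61 nt of exon with Mir5114 on the same strand.

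RefSeq (GRCm38.p6) gives a promoter for 7 of the 10 members, namely Fasn, Acaca, Acly, Elovl1, Elovl5, Elovl6 and Fads2. The 250 bases before each start were searched on both strands for the SRE core TCACNCCAC, a site of SREBP, the E-box palindrome CACGTG, the inverted CCAAT box ATTGG, the site of NF-Y, and the GC box GGGCGG. Shown are the 3 promoters that hold a CCAAT box and that of Elovl6, which like Fads2 was lowest in HFD replicate 1 and highest in the other HFD libraries; capitals mark the motifs found on either strand, and bases that GENCODE places in an exon of the gene were left off.
Fasn, chr11:120824548-120824797, minus strand: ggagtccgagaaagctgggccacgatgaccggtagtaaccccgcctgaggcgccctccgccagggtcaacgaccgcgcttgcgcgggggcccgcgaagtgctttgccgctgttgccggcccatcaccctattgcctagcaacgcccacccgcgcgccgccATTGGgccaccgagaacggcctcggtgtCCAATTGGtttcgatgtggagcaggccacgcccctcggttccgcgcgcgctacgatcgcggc
Elovl1, chr4:118427843-118428092, plus strand: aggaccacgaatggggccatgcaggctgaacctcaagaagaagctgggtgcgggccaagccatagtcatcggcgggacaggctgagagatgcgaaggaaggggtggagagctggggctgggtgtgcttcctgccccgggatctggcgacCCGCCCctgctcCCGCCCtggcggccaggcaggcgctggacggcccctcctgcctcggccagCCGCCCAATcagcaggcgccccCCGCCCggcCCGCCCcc
Elovl5, chr9:77917115-77917363, plus strand: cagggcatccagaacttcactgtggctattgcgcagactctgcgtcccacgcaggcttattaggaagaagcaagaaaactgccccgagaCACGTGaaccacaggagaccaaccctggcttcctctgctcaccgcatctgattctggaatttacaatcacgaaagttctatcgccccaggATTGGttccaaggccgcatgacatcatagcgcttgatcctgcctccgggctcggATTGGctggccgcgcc
Elovl6, chr3:129532136-129532354, plus strand: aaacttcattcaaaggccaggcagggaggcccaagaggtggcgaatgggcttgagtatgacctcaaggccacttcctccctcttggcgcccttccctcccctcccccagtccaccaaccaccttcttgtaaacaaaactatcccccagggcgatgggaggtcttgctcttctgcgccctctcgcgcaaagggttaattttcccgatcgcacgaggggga
The Fasn promoter has 3 CCAAT boxes, whose first bases lie at -90, -62 and -59 from the start, the latter pair overlapping as ccaattgg. In the Elovl5 promoter there is an E-box at -161, with CCAAT boxes at -71 and -17. None of the 4 motifs occurs in the Elovl6 window. Elovl1 has a CCAAT box at -35, overlapping a GC box at -39, and 5 GC boxes in all, and a further start of Elovl1, whose window is not shown, has GC boxes at -48 and -37. In windows that are not shown, Acly holds 4 GC boxes and Fads2 1, at -186, and 243 of the 250 bases of the Fads2 window lie in an exon of Fads2 in GENCODE, that GC box among them. The Acaca window, chr11:84195188-84195437, holds none of the 4 motifs. It lies inside Acaca as GENCODE places the gene, which starts at 84129672, so it is not sequence before the first base of the gene. A CCAAT box was present in 3 of the 7 genes and in 33.8% of 32851 promoters in the table, a GC box in 3 and in 32.7%, an E-box in 1 and in 6.02%, and the SRE core in 0 and in 1.05%. These matches describe letters in a short window and were not tested for binding.

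The 8 libraries held 28203651 to 38969160 counts in HFD and 32575696 to 48409689 in CF, of which 12599 to 21070 fell on the 10 members. Counts are given as CPM (counts scaled to the library) after scaling by edgeR's TMM factors. Flt3, Csf1r and Kit, the genes of the sort markers Flt3, CD115 and c-kit, were present in every library, with Flt3 at 88.8 to 378 CPM in HFD and 228 to 316 CPM in CF. HFD replicate 1 stood apart. It had the lowest Flt3 of the 8 libraries and the most RNA of neutrophil genes, of which 12 of 12 were present in all libraries: their summed level was 19820 CPM there, 938 to 3470 CPM in the other HFD libraries and 1915 to 6440 CPM in CF. The 7 erythroid genes summed to 512 CPM in the same library and to at most 130 CPM in any other. Of 8 adipocyte genes, 3 were in the table, with Pparg and Fabp4 at no more than 1.83 CPM and Lpl at no more than 6.87 CPM in any library. B cell genes were higher in HFD in 6 of 7 cases (59.7% of all genes tested), with a median log2 fold change of 0.63, 4 of 7 at an unadjusted p below 0.05 in edgeR (8.56% of all genes tested), and summed levels of 46.9 to 110 CPM in HFD and 49.5 to 79.3 CPM in CF. Their part in the results below was not tested. Fewer cells of a type and less RNA per cell cannot be told apart in these bulk libraries. Results are therefore given with all libraries and, where they differ, without HFD replicate 1.

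**Figure D1:**
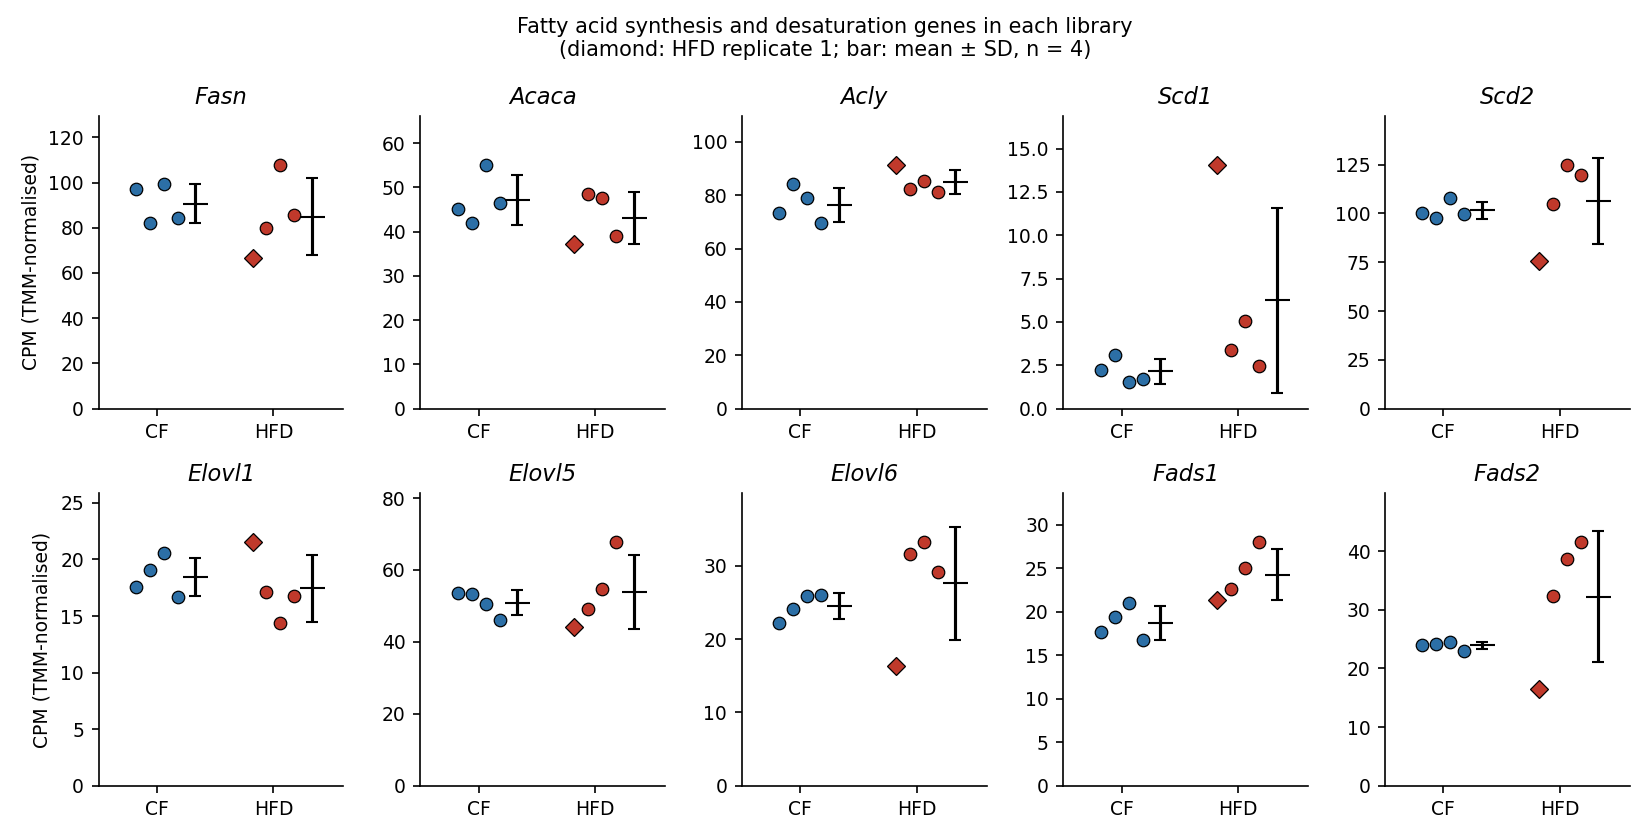
Level of the 10 genes in each library, in TMM-normalised CPM with axes from 0, for CF (blue) and HFD (red); diamonds are HFD replicate 1 and black bars are mean ± SD (n = 4). The HFD points of Fads1 all lie above the CF points, and the diamond of Fads2, Scd2 and Elovl6 lies below every other point.

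No member passed an adjusted p of 0.05 in edgeR when all 8 libraries were compared (0 of 10, against 0.423% of all genes tested). The 67 genes called in this fit were all lower in HFD, and 0 genes were called higher. At an unadjusted p below 0.05 there were 2 of 10, Scd1 and Fads1, both higher in HFD, against 8.56% of all genes tested. The log2 fold change of HFD over CF (log2FC) was above 0 for 7 of the 10 (59.7% of all genes tested), and the median of the 10 was 0.12 against 0.055 for all genes. The desaturases Scd1, Fads2 and Fads1 had the 3 highest values, and the other 7 members, Scd2 and the enzymes of palmitate synthesis among them, lay between -0.13 and 0.17. Without HFD replicate 1, Fads2 was called higher in HFD (1 of 10, against 0.214% of genes tested that were called higher), and 4 of 10 were below an unadjusted p of 0.05 (14.6% of genes tested).

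Fasn, Acaca and Acly showed no difference between the diets beyond the spread of the libraries. Fasn was at 66.4, 80.0, 108 and 85.7 CPM in HFD replicates 1 to 4 and at 97.0, 82.3, 99.3 and 84.3 CPM in CF replicates 1 to 4. The lowest and the highest value were both in HFD, so the CF range lay inside that of HFD. With 85.0 ± 17.2 CPM (SD, n = 4) against 90.7 ± 8.66 CPM, the log2FC was -0.09 (standard error, SE, of 0.15, adjusted p = 0.94 from edgeR), with a 95% confidence interval from -0.44 to 0.25. It was 0.01 without HFD replicate 1 and 0.12 when library size alone scaled the counts, a scaling that moved the median of all genes from 0.055 to 0.25. Acaca had 37.2, 48.6, 47.7 and 38.9 CPM in HFD and 45.1, 41.9, 55.1 and 46.5 CPM in CF. Its groups overlapped widely, and a log2FC of -0.13 (SE 0.13, adjusted p = 0.88 from edgeR) became 0.07 with library size alone. Without single libraries it ran from -0.19 (HFD replicate 2 left out) to -0.047 (CF replicate 3 left out). Acly had 91.3, 82.4, 85.4 and 81.3 CPM in HFD and 73.2, 84.0, 78.9 and 69.5 CPM in CF. Only CF replicate 2 reached into the HFD range. The log2FC of Acly was 0.16 (SE 0.10, adjusted p = 0.77 from edgeR), with an interval from -0.06 to 0.37. Of the 3, Acly was the only one above 0 in every setting tried, from 0.10 to 0.36, and it was called in none.

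Fads1 and Fads2, the delta-5 and delta-6 desaturases of the pathway that starts from linoleic and alpha-linolenic acid, were both higher in HFD on average, and neither was called with all libraries. Fads1 was at 21.3, 22.6, 25.1 and 28.0 CPM in HFD and at 17.6, 19.4, 21.0 and 16.7 CPM in CF. Every HFD library was above every CF library, though HFD replicate 1 and CF replicate 3 lay close together; Fads1 was the only member without overlap, which 2.58% of all genes tested showed in that direction. The mean was 24.2 ± 2.93 CPM in HFD and 18.7 ± 1.93 CPM in CF (SD, n = 4). The log2FC was 0.37 (SE 0.12, 95% confidence interval 0.09 to 0.66, adjusted p = 0.33 from edgeR). Over 18 settings it stayed between 0.26 and 0.58, and the adjusted p never fell below 0.14.

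Fads2 was at 16.5, 32.4, 38.6 and 41.6 CPM in HFD and at 24.0, 24.2, 24.6 and 23.0 CPM in CF. The CF libraries were almost level, 3 HFD libraries were above all of them, and HFD replicate 1 was below all of them. The means of 32.3 ± 11.2 CPM and 23.9 ± 0.66 CPM (SD, n = 4) gave 0.43 as the log2FC (SE 0.25, 95% confidence interval -0.14 to 1.00, adjusted p = 0.75 from edgeR). Without HFD replicate 1 it was 0.65 (SE 0.11, 95% confidence interval 0.41 to 0.89, adjusted p = 0.033 from edgeR), a fold of 1.57. Leaving out HFD replicate 4 lowered it to 0.25 and HFD replicate 3 to 0.33, neither of them called. Leaving out HFD replicate 1 and CF replicate 1 together gave 0.65 (adjusted p = 0.037 from edgeR, a fit that called 2.45% of all genes in either direction). CF replicate 1 had the least neutrophil RNA of its diet. Fads2 was called in 2 of 18 settings, without HFD replicate 1 and without both libraries, the latter chosen after seeing the data.

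**Figure D2:**
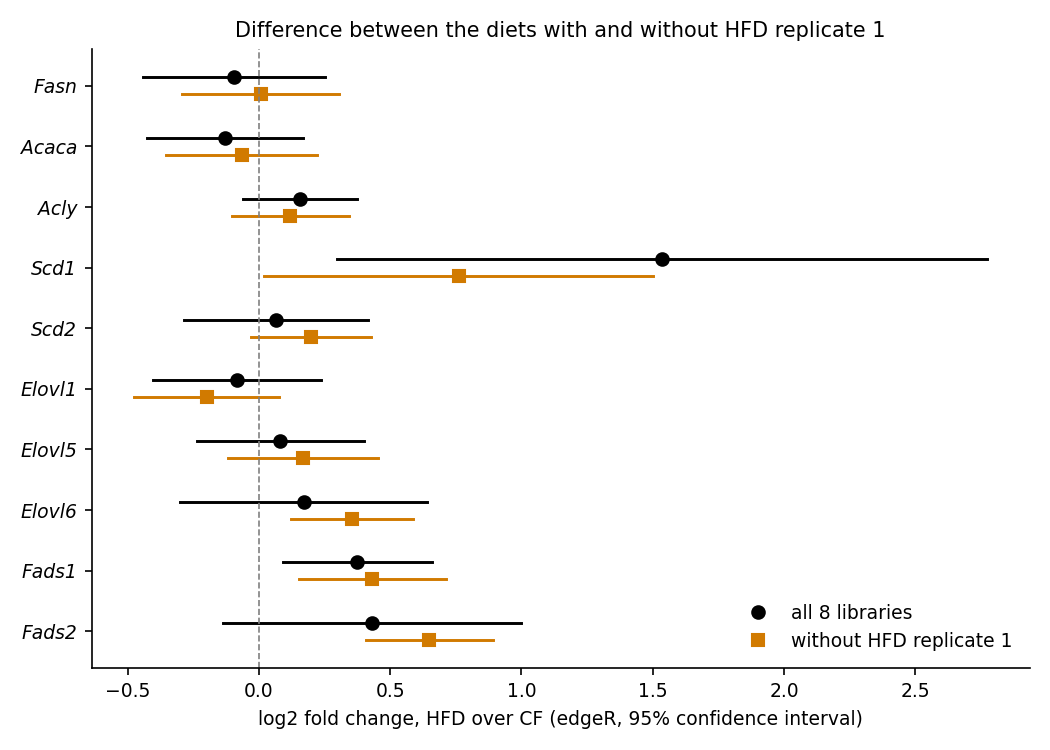
Log2 fold change of HFD over CF for each gene with its 95% confidence interval from edgeR, with all 8 libraries (black) and without HFD replicate 1 (orange). The orange interval of Fads2, from 0.41 to 0.89, is clear of 0 and the black one is not, while Scd1 moves from 1.54 to 0.76.

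The stearoyl-CoA desaturases differed in level and in pattern. Scd2 was at 75.7, 105, 125 and 119.7 CPM in HFD and at 100.2, 97.9, 108 and 99.9 CPM in CF. HFD replicate 1 was the lowest of all libraries and HFD replicates 3 and 4 the highest. The log2FC of Scd2 was 0.07 (SE 0.15, adjusted p = 0.96 from edgeR), 0.20 without HFD replicate 1, and -0.02 and -0.04 without HFD replicates 3 and 4. Scd1, the form of liver and adipose tissue, was scarce, with 438, 108, 192 and 102 counts in HFD and 87, 98, 48 and 66 in CF, or 14.1, 3.40, 5.04 and 2.48 CPM and 2.25, 3.12, 1.51 and 1.72 CPM. HFD replicate 1 held more Scd1 than any other library, and HFD replicate 4 lay below CF replicate 2. Scd1 had 6.24 ± 5.32 CPM in HFD and 2.15 ± 0.72 CPM in CF (SD, n = 4). The log2FC was 1.54 (SE 0.54, 95% confidence interval 0.30 to 2.77, adjusted p = 0.39 from edgeR). Without HFD replicate 1 the value was 0.76 (edgeR, adjusted p = 0.33), and over the 18 settings it was above 0 in each and called in none.

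Among the elongases, Elovl6 and Elovl5 were lowest and Elovl1 highest in HFD replicate 1. Elovl6 was at 16.3, 31.7, 33.2 and 29.2 CPM in HFD and at 22.2, 24.1, 25.8 and 26.1 CPM in CF, again with 3 HFD libraries above all CF libraries and HFD replicate 1 below them. The log2FC was 0.17 (SE 0.21, adjusted p = 0.91 from edgeR) and 0.35 (adjusted p = 0.15) without HFD replicate 1, but 0.099, 0.069 and 0.10 without HFD replicates 2, 3 and 4. Elovl5 was at 44.0, 49.0, 54.8 and 67.8 CPM in HFD and at 53.7, 53.3, 50.6 and 46.1 CPM in CF. HFD replicate 4 alone was far above the CF libraries, and the log2FC of 0.08 (edgeR, adjusted p = 0.94) was -0.09 without it. Elovl1 was at 21.5, 17.1, 14.4 and 16.8 CPM in HFD and at 17.6, 19.1, 20.5 and 16.7 CPM in CF. Here HFD replicate 1 was the highest library instead of the lowest, and the log2FC was -0.08 (edgeR, adjusted p = 0.94), -0.20 without that library, -0.00042 without HFD replicate 3 and 0.11 with library size alone.

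Per kilobase of exon, which allows levels to be compared between genes, the 10 members spanned a wide range. Scd2 was the highest, with 19.0 ± 2.74 CPM per kb over the 8 libraries (SD), followed by Acly with 15.3 ± 1.31 and Elovl5 with 14.9 ± 2.06. Fads2 had 8.53 ± 2.61, Fasn 8.02 ± 1.19 and Elovl1 6.59 ± 0.85 CPM per kb. Lower levels were found for Fads1, with 4.46 ± 0.78, Elovl6, with 4.05 ± 0.85, and Acaca, with 2.64 ± 0.34 CPM per kb, and Scd1 came last, with 0.86 ± 0.85. Each gene's range overlapped that of the next in this order, and neighbours kept their order in all 8 libraries only between Elovl5 and Fads2, Elovl1 and Fads1, and Elovl6 and Acaca. Acly was above Elovl5 and Fads1 above Elovl6 in 6 of 8 libraries each, so these neighbours did not differ beyond their spread. Fads2 was above Fasn in HFD replicates 2, 3 and 4, with 9.79 against 7.76 CPM per kb as the HFD means, and below it in HFD replicate 1 and in all CF libraries, with 7.26 against 8.29 CPM per kb as the CF means. In the HFD library with the most Scd1, Scd1 reached 2.87 CPM per kb, against 13.9 for Scd2 in the same library.

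Ratios of counts within a library do not depend on scaling, and 5 were compared. The ratio of Scd1 to Scd2 was higher in HFD by 1.21 on the log2 scale (exact two-sided permutation test over the 70 ways to draw 4 of 8 libraries, p = 0.11, adjusted over 5 ratios p = 0.57), and was -2.43, -4.94, -4.63 and -5.59 in HFD and -5.47, -4.97, -6.15 and -5.85 in CF. Only HFD replicate 1 lay far from the rest, and without it the difference was 0.56. Fads1 to Fads2 differed by 0.03 (exact p = 1.0), with 0.37 in HFD replicate 1, -0.62 to -0.52 in the other HFD libraries and -0.46 to -0.22 in CF. Each of these 3 HFD libraries therefore held less Fads1 for its Fads2 than any CF library. Without HFD replicate 1, the difference in this ratio was -0.21. The ratio of Fasn to Acly was lower in HFD, with a difference of -0.27 (exact permutation p = 0.26, adjusted p = 0.64) and of -0.12 without HFD replicate 1. The ratio of Elovl6 to Elovl5 differed by 0.05 (exact permutation p = 0.80) and that of Fasn to Acaca by 0.02 (exact permutation p = 0.83). None passed the threshold. The smallest p that 4 against 4 can give is 0.029, and a single ratio at that p would not pass after adjustment over 5, so the design could not call 1 ratio alone.

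Pairs of members were also compared across the 8 libraries. Of 45 pairs, 9 had an exact permutation p below 0.05 for Pearson's r of log2 CPM and 0 passed after adjustment over the 45. Of all 45, 24 had a positive r, and of the 9, 3 were negative, those of Elovl1 with Elovl6 (r = -0.79), Fads2 (r = -0.77) and Scd2 (r = -0.76), where Elovl1 was the gene that was highest in HFD replicate 1. Scd2 and Fads2 were closest (r = 0.92, exact permutation p = 0.0018, adjusted p = 0.059, Spearman's rho = 0.88, exact permutation p = 0.0072, adjusted p = 0.16), with r = 0.85 without HFD replicates 1 and 3, the libraries farthest from the median. Scd2 and Elovl6 had r = 0.91 and rho = 0.79 (exact permutation p = 0.0040 and 0.028, adjusted p = 0.060 and 0.21), which fell to r = 0.58 without those libraries. Elovl6 and Fads2 had r = 0.89 and rho = 0.79 (exact permutation p = 0.0026 and 0.028, adjusted p = 0.059 and 0.21), and r = 0.74 without them. Within diets, r of Scd2 and Fads2 was 0.99 in HFD and 0.51 in CF, and that of Elovl6 and Fads2 0.94 in HFD and -0.24 in CF, over 4 libraries each. Acly and Scd1, both highest in HFD replicate 1, had r = 0.81 and rho = 0.90 (exact permutation p = 0.013 and 0.0046, adjusted p = 0.13 and 0.16), and r = 0.99 without CF replicates 1 and 4.

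Levels were also set against the amount of neutrophil RNA, a relation examined after the values were seen, for all 10 members, of which 4 passed by r and 0 by rho after adjustment. Fads2 went down as the summed level of the 12 neutrophil genes went up (r = -0.90 on log2 scales, exact permutation p = 0.0039, adjusted over 10 p = 0.024, rho = -0.74, exact permutation p = 0.046, adjusted p = 0.11). Without HFD replicates 1 and 4, the libraries farthest from the median, r was -0.69, and it was -0.99 within HFD and -0.02 within CF. Scd2 (r = -0.87, rho = -0.81) and Elovl5 (r = -0.84, rho = -0.79) also went down, with exact permutation p of 0.0048 and 0.0094 for r and 0.022 and 0.028 for rho, adjusted p of 0.024 and 0.031 for r and 0.11 for both rho, and r of -0.66 and -0.60 without those libraries. Elovl1 went up (r = 0.80, exact permutation p = 0.018, adjusted p = 0.044, rho = 0.76, exact permutation p = 0.037, adjusted p = 0.11), with r = 0.75 without them. Elovl6 did not pass (r = -0.73, exact permutation p = 0.036, adjusted p = 0.071, rho = -0.67, exact permutation p = 0.083, adjusted p = 0.17). Its r was -0.39 without HFD replicates 1 and 4, and within CF it had the other sign (r = 0.84). Within CF, r of the 4 that passed lay between -0.47 and 0.36. The part of neutrophil RNA in the difference between the diets was not tested. HFD replicates 3 and 4, which held the least of it, had the highest Fads2, while CF replicate 1, with less neutrophil RNA than HFD replicate 2, had 24.0 CPM of Fads2 against 32.4 CPM.

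**Figure D3:**
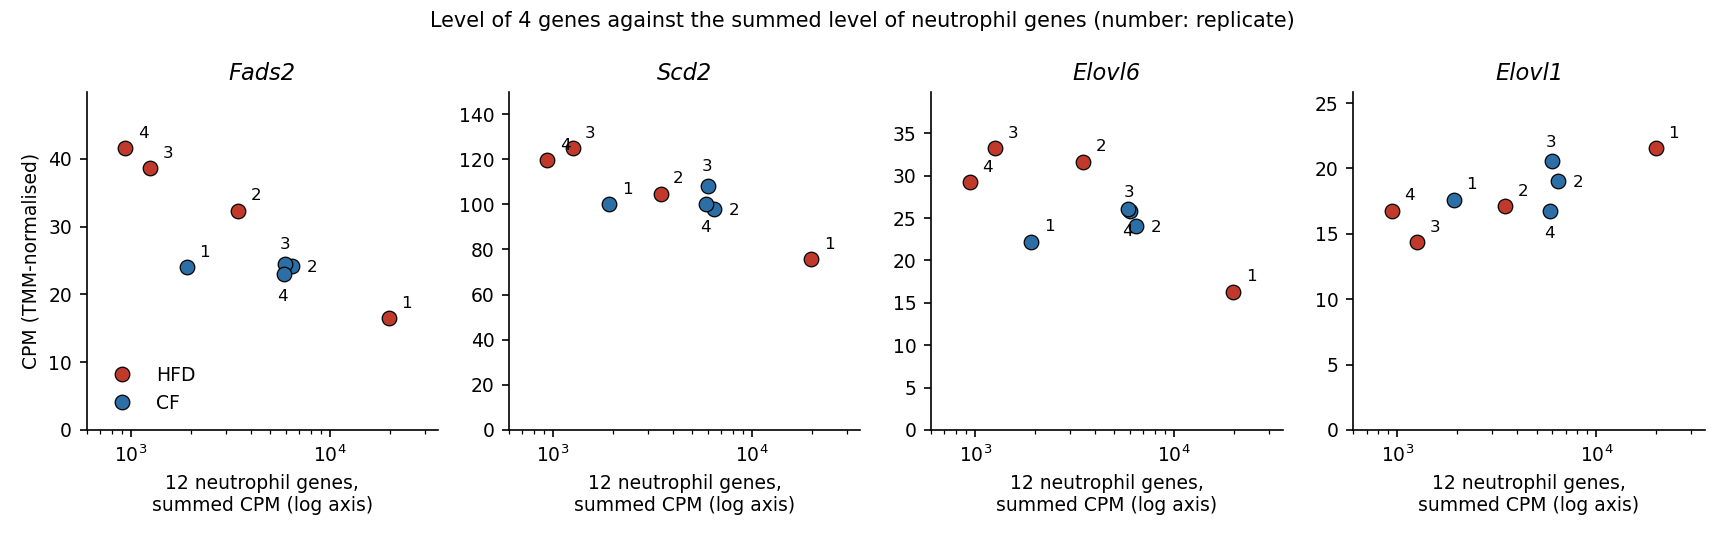
TMM-normalised CPM of Fads2, Scd2, Elovl6 and Elovl1 in each library (y axis, from 0) against the summed CPM of 12 neutrophil genes (x axis, log scale), HFD in red and CF in blue with replicate numbers. HFD replicate 1, at 19820 CPM of neutrophil genes, is lowest for the first 3 genes and highest for Elovl1.

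Of 18 transcription factors and other regulators of these genes tested, 0 were called by edgeR. A log2FC above 0 was seen in 13 (59.7% of all genes tested) and the median was 0.049. At an unadjusted p below 0.05, 2 were lower in HFD, Mid1ip1 and Mlx, and 0 were higher (8.56% of all genes tested in either direction). Srebf1, whose SREBP-1c product drives fatty acid synthesis, was at 21.5 to 28.2 CPM in HFD and 21.3 to 26.4 CPM in CF, with a log2FC of 0.04 (edgeR, adjusted p = 0.97). Srebf2, the SREBP of sterol synthesis, had 0.16 (adjusted p = 0.84 from edgeR) and Insig1, an SREBP target that holds SREBPs back, 0.20 (adjusted p = 0.84). Leaving out HFD replicate 4 lowered these to 0.059 and 0.086, and leaving out HFD replicate 1 raised them to 0.25 and 0.32. Mid1ip1, which helps acetyl-CoA carboxylase to polymerise, was at 8.89, 12.3, 4.12 and 4.81 CPM in HFD and at 11.6, 14.8, 17.9 and 14.5 CPM in CF, and HFD replicate 2 alone reached the CF range (log2FC -0.97, edgeR adjusted p = 0.38, and -1.31 to -0.76 over 18 settings). Mlx, the partner of the glucose-sensing factor ChREBP, had -0.61 (edgeR, adjusted p = 0.41), and Usf2, an E-box factor, 0.17 (adjusted p = 0.67). Mlxipl, Nr1h3 and Me1 were looked for and are not among the genes of the deposited table, so they could not be tested.

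Genes of sterol synthesis and uptake, the other branch under SREBP, were above 0 in 16 of 16 tested members (59.7% of all genes tested). This list, like the others, was chosen with earlier results of these data known. Its median log2FC was 0.33 against 0.055 for all genes. With all libraries 0 were called by edgeR (0.423% of all genes tested), and 4 did not overlap between the diets (2.58% of all genes tested in that direction). Sqle, squalene epoxidase, was at 10.2, 16.3, 12.7 and 16.9 CPM in HFD and at 7.44, 9.26, 7.37 and 7.75 CPM in CF, so that all HFD libraries lay above all CF libraries, with HFD replicate 1 the nearest. Its log2FC was 0.82 (SE 0.18, adjusted p = 0.11 from edgeR) and 0.94 without HFD replicate 1 (adjusted p = 0.027 from edgeR), and DESeq2 called it with all libraries (adjusted p = 0.0045, a fit that called 0.404% of genes tested higher). Sqle was called in 3 of 18 settings. The edgeR adjusted p was 0.34 without HFD replicate 2 and 0.69 with protein-coding genes alone. Idi1, isopentenyl diphosphate isomerase, had 0.85 (edgeR, adjusted p = 0.35) and Fdft1, squalene synthase, 0.38 (edgeR, adjusted p = 0.32). The median of the list stayed between 0.19 and 0.52 over 18 settings, and that of the fatty acid genes between 0.03 and 0.32.

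**Figure D4:**
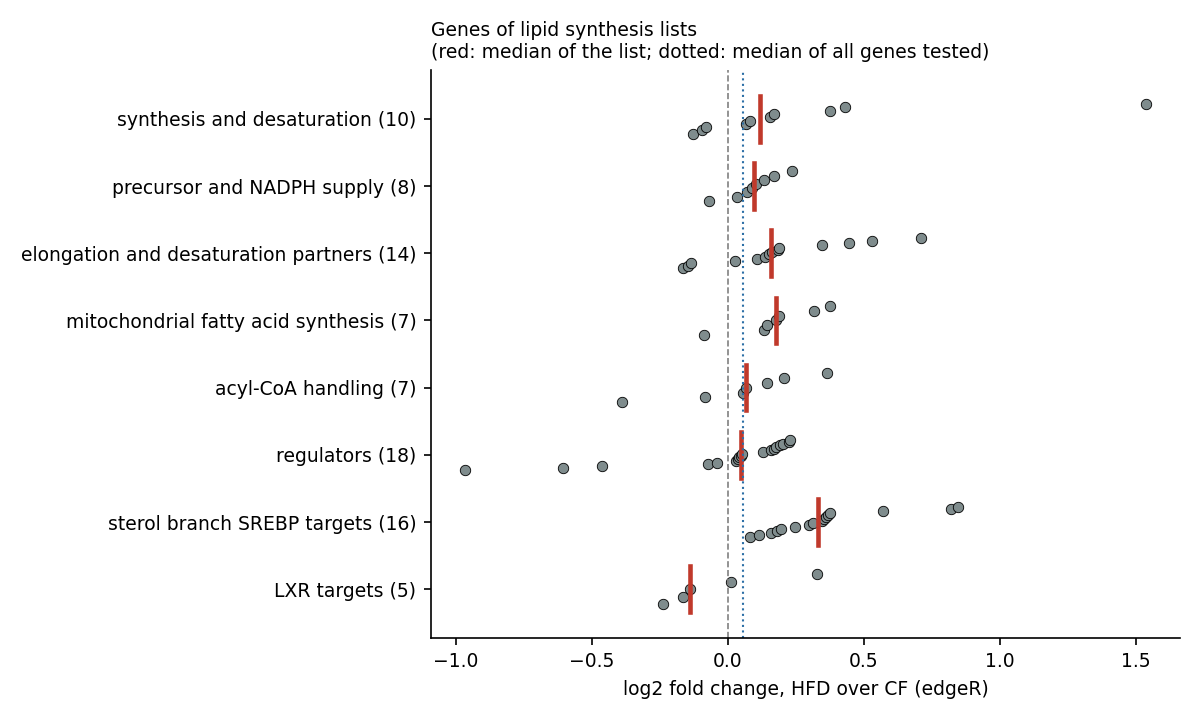
Log2 fold change of HFD over CF in edgeR for each tested gene of 8 lists (points), with the number of genes in brackets, the median of the list (red bar) and the median of all genes tested (dotted line, 0.055). The sterol genes lie to the right of 0 in 16 of 16 cases (59.7% of all genes tested), and the 10 genes of fatty acid synthesis and desaturation spread from -0.13 to 1.54.

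Of 8 genes that supply citrate, acetyl-CoA and NADPH, 7 were above 0 (59.7% of all genes tested) with a median of 0.095, and 0 were called. Slc25a1, the mitochondrial citrate carrier, had a log2FC of 0.13 (edgeR, adjusted p = 0.95), Acss2, which makes acetyl-CoA from acetate, 0.07 (adjusted p = 0.98), and Idh1 and Mdh1, cytosolic dehydrogenases, 0.24 and 0.10 (adjusted p = 0.91 and 0.93). Without HFD replicate 1, 2 of the 8 were above 0 and the median was -0.04. The pentose phosphate enzymes G6pdx and Pgd, named here after their values were seen, stood out in that library: G6pdx was at 139.5 CPM and Pgd at 173 CPM in HFD replicate 1 and at 33.1 to 79.2 CPM in the other 7 libraries. Pgd had a log2FC of 0.17 with all libraries and -0.75 without HFD replicate 1 (edgeR, adjusted p = 0.97 and 0.16). Without both HFD replicate 1 and CF replicate 1, a fit chosen after seeing the data, it was -0.91 (edgeR, adjusted p = 0.028). That fit called 2.45% of all genes in either direction.

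The 14 partners in elongation and desaturation, among them further desaturases, the dehydratases and reductases of the elongation cycle and the cytochrome b5 system, were above 0 in 11 cases (59.7% of all genes tested) with a median of 0.16, and 0 were called. The median was 0.061 without HFD replicate 4 and 0.11 without HFD replicate 1. Fads3, which lies in the same family as Fads1 and Fads2, was at 14.0, 20.4, 26.3 and 34.2 CPM in HFD and at 20.5, 17.7, 15.6 and 21.0 CPM in CF. It was lowest in HFD replicate 1 and highest in HFD replicates 3 and 4, with a log2FC of 0.34 (SE 0.25, adjusted p = 0.81 from edgeR). Cyb5b, an outer mitochondrial membrane cytochrome b5, had 0.18 and Hacd3, an acyl-CoA dehydratase, 0.16 (edgeR, adjusted p = 0.78 and 0.83). Of 5 LXR targets, 2 were above 0 and 0 were called, with Lpcat3, which puts polyunsaturated acids into phospholipids, at 14.6 to 19.7 CPM in HFD and 12.2 to 13.4 CPM in CF (log2FC 0.33, edgeR adjusted p = 0.44), Abcg1 at -0.24 and Abca1 at -0.17 (adjusted p = 0.66 and 0.93).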

How the data were processed

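RNA of sorted CDPs was sequenced in 8 libraries, 4 per diet. The deposited file holds raw counts per gene: the authors aligned reads with HISAT2, kept uniquely mapped pairs and counted them with StringTie on GENCODE genes, on GRCm38 per the labels. Versions are not given in the sources used here. No row of the table has a highest count under 29. Names, coordinates and exon lengths came from GENCODE vM21.

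Counts were compared in R 4.3.3 with edgeR 4.0.16 (filterByExpr, TMM, robust quasi-likelihood fit with diet as the only term), which tested 15837 genes with Benjamini-Hochberg adjustment over all of them. The members had 508 to 4931 counts per library, Scd1 48 to 438; intervals cover the spread between libraries. Log2 CPM used a prior count of 2, and ratios had 0.5 added to each count. Exact permutation tests were two-sided. Alternatives were RLE factors, library size alone, protein-coding genes alone, no filter, 1 CPM in 4 libraries, DESeq2 1.42.0, limma 3.58.1 voom, a replicate block and each library left out. The scripts were tested on simulated data. Figures used matplotlib 3.10.9.

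The members and lists were chosen with earlier results of these data known. Named were all members, Srebf1, Srebf2, Insig1, Mlxipl, Nr1h3, Me1, Acss2 and Slc25a1, and of each list every called gene or, where none was called, the 3 with the lowest p; other names are marked.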

Additional observations from a re-analysis of the deposited data

Results flagged for a closer look

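The log2 ratio of Fads1 to Fads2 in HFD replicate 1 was 0.37, far above the -0.62 to -0.52 of the other 3 HFD libraries, with a gap to the nearest of 0.895 of the range of its diet. It was the only library above 0, and it had 21.3 CPM of Fads1 and 16.5 CPM of Fads2, the lowest of its diet in both. This was 1 of 30 groups of 4 libraries looked at, the 10 members and 5 ratios in each diet, and chance gives about 1 in 20.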

How the results depend on the processing

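Over 18 settings, 0 of the 10 members were called, except for 1, Fads2, without HFD replicate 1 and without both HFD replicate 1 and CF replicate 1, so that leaving out single libraries gave 0 to 1. Of the pathway lists 0 genes were called, 1 with DESeq2 (Sqle), 0 to 1 without single libraries and 2 without both libraries (Sqle and Pgd). All genes called were 67, and 108 with library size alone, 567 with DESeq2, 388 without both libraries, 0 with protein-coding genes alone (537 at an unadjusted p below 0.05), 0 with the replicate block (911) and 0 to 200 without single libraries. With library size alone, log2FC turned to 0.12 for Fasn, 0.069 for Acaca and 0.11 for Elovl1, and 9 of 45 member pairs passed in place of 0. Signs also changed in other settings: with protein-coding genes alone Srebf1 had -0.00059, with limma voom Acss2 -0.029, G6pdx -0.12 and Pgd -0.18, with the replicate block G6pdx -0.17 and Pgd -0.26, and without both libraries Fasn 0.040, Acss2 -0.18, G6pdx -0.71 and Pgd -0.91. Without single libraries, log2FC ran from -0.23 to 0.0071 for Fasn, -0.036 to 0.20 for Scd2, -0.087 to 0.17 for Elovl5, 0.069 to 0.35 for Elovl6, 0.25 to 0.65 for Fads2, -0.20 to -0.00042 for Elovl1, 0.059 to 0.25 for Srebf2, 0.086 to 0.32 for Insig1, -0.033 to 0.098 for Srebf1, -0.21 to 0.18 for Acss2, -0.10 to 0.27 for Slc25a1, -0.55 to 0.31 for G6pdx and -0.75 to 0.41 for Pgd. The differences in log2 ratio ran from -0.21 to 0.12 for Fads1 to Fads2, -0.069 to 0.20 for Elovl6 to Elovl5 and -0.048 to 0.10 for Fasn to Acaca. The cause was not tested. Same-numbered libraries did not deviate together (r from -0.44 to -0.08), so the replicate block does not pair them. Divided by the summed level of 10 CDP gate and lineage genes, a scaling chosen after seeing the data whose divisor was 716.5 CPM in HFD replicate 1 and 1083 to 1411 CPM elsewhere, Fads2 was higher in HFD by 0.34 and Fads1 by 0.36 on the log2 scale (exact permutation p = 0.029 and 0.086, adjusted over the 10 members p = 0.29 and 0.43). Scd1 rests on as few as 48 counts in a library.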

Other observations

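Mitochondria hold a fatty acid synthesis route of their own, which makes the octanoyl precursor of lipoate. Of its 7 genes tested, 6 were above 0 with a median log2FC (log2 fold change of HFD over CF) of 0.18, and 0 were called by edgeR. Ndufab1, the mitochondrial acyl carrier protein, had 0.19, Cbr4, a subunit of the ketoacyl reductase, 0.37 and Oxsm, the ketoacyl synthase, 0.14 (edgeR, adjusted p = 0.77, 0.84 and 0.87). Without HFD replicate 1, 7 of 7 were above 0 with a median of 0.21, and 0 were called.

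Of 7 genes that activate, bind or hydrolyse acyl-CoA, 5 were above 0 with a median of 0.065, and 0 were called. Acsl4, an acyl-CoA synthetase that prefers arachidonic acid, was at 43.2, 55.6, 43.6 and 55.9 CPM in HFD and at 48.4, 44.6, 39.2 and 39.5 CPM in CF, a log2FC of 0.21 (edgeR, adjusted p = 0.77). Acsl3 had -0.39 and Acsl5 0.14 (edgeR, adjusted p = 0.76 and 0.82). The median of this list was -0.04 without HFD replicate 1.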
